A study of Mus musculus with 6 samples.

Results

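The genes described are the nuclear genes for structural subunits of the mitochondrial respiratory chain and the ATP synthase, read in cultured mouse granulosa cells with and without GSK4112. The genes were chosen by symbol and by their mean level over all 6 libraries, not by any difference between the groups. Of 86 protein-coding genes whose GENCODE M21 symbol is that of a subunit (the numbered Ndufa, Ndufb, Ndufc, Ndufs and Ndufv genes with Ndufab1, Sdha to Sdhd, Cyc1, Cycs, and symbols beginning with Uqcr, Cox4 to Cox8 or Atp5), 81 had a mean of at least 1 FPKM over the 6 libraries. FPKM is fragments per kilobase of exon, scaled to library size. The 81 genes were among 12181 genes at that level and 27151 genes in the table. Complex I held 36 of them, complex II 4, complex III 9, complex IV 14 and complex V 17, and Cycs, the electron carrier cytochrome c, stood alone.

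Granulosa cells are the somatic cells around the oocyte, and they make steroid hormones with enzymes that sit partly in mitochondria. Cells were obtained by puncturing mouse follicles, cultured for 24 h, kept without serum for 12 h, and then held for 24 h with GSK4112 (3 libraries) or without it (3 control libraries). GSK4112, a small molecule, activates the nuclear receptor NR1D1 (REV-ERBα), which binds heme and acts as a repressor of transcription. The labels name no genotype, strain or age for either group. Nor do they tell if replicates were separate cultures or animals: the p-values cover the scatter of these libraries, which may be technical. The stated purpose of the series was to learn how raised NR1D1 affects the endocrine function of granulosa cells.

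In the respiratory chain, complex I (NADH dehydrogenase) and complex II (succinate dehydrogenase) pass electrons to coenzyme Q. Complex III passes them to cytochrome c, and complex IV passes them to oxygen. Complex V uses the resulting proton gradient to make ATP. Complexes I, III, IV and V combine subunits encoded in the nucleus with a few encoded in mitochondrial DNA, whereas complex II is wholly nuclear. Genes for the nuclear subunits are classical targets of the transcription factors NRF-1 and GABP (also called NRF-2). Symbols set the complex here: Ndufa4 is counted with complex I, although its protein is found in complex IV, and Cox7a2l, a Cox7a relative that joins supercomplexes of complexes III and IV, is counted with complex IV.

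The libraries held 16559256 to 18158273 fragments, recovered from the steps of the FPKM values, and 12012 to 12290 genes reached 1 FPKM in each. Replicate 1 of both groups lay at the same end of the first principal component (-13.4 for GSK4112 replicate 1 and -38.6 for control replicate 1), and the other 4 libraries lay between 1.05 and 26.6. Of 16 granulosa markers, 15 averaged at least 1 FPKM (Amh did not), with sums of 2425 to 3229 FPKM in GSK4112 libraries and 3250 to 3850 FPKM in control libraries. Of 10 theca and stroma markers 4 reached that mean, and their sums were 78.3 to 147 FPKM in GSK4112 libraries and 57.1 to 271 FPKM in control libraries; the theca markers Cyp17a1 and Insl3 were below it. None of 5 endothelial and 7 oocyte markers reached it, and 2 of 6 immune markers did (sums of 16.1 to 37.0 FPKM in GSK4112 libraries and 6.83 to 39.6 FPKM in control libraries). Of the 15 granulosa markers, 12 were lower in GSK4112 libraries and 3 higher, with log2 changes from -1.61 to 1.17. What part the granulosa marker difference has in the values below was not tested. In bulk RNA, fewer cells of a type and less RNA per cell cannot be told apart.

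Promoter windows from RefSeq (GRCm38.p6, 250 bases before to 50 after the start of each gene) were available for 65 of the 81 genes. Motifs were searched on both strands. The NRF-1 type motif (GCGC, any 2 bases, GCGC) was in 19 of the 65 windows (29.2%), against 16.3% of 8554 protein-coding genes with a mean of at least 1 FPKM and 7.0% of 27025 genes with a window. The GABP type motif CCGGAAG was in 16 windows (24.6%, against 21.8% and 9.93%), the YY1 type motif AAGATGG in 10 (15.4%, against 8.78% and 7.28%), and the REV-ERB type motif TNGGTCA in 9 (13.8%, against 11.2% and 12.4%). By complex, the NRF-1 type motif was in 9 of 32 windows of complex I and 6 of 13 of complex V. It was in 2 of 3 windows of complex II, 1 of 5 of complex III and 1 of 11 of complex IV. A match is a description of the letters in the window and not a binding site. The windows of 4 genes with some of the widest differences between the groups are shown, with motif letters in capitals. In Ndufa6, Ndufs5 and Atp5g3 the capitals mark the NRF-1 type motif. In Ndufs4 the first run of capitals is the REV-ERB type motif on the reverse strand and the second is the YY1 type motif.
Ndufa6, minus strand, chr15:82354242-82354541: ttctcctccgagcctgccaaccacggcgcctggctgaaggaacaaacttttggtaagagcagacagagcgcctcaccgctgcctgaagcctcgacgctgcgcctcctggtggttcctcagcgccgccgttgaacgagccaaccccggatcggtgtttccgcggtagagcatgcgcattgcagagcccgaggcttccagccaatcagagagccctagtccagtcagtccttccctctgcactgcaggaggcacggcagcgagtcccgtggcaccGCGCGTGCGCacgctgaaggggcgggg
Ndufs5, minus strand, chr4:123718137-123718436: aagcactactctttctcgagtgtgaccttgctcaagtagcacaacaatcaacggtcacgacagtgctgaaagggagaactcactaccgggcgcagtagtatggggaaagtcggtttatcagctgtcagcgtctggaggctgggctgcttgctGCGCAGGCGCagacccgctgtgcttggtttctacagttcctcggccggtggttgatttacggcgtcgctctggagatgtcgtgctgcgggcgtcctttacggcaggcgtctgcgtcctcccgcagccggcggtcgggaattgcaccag
Atp5g3, minus strand, chr2:73911277-73911576: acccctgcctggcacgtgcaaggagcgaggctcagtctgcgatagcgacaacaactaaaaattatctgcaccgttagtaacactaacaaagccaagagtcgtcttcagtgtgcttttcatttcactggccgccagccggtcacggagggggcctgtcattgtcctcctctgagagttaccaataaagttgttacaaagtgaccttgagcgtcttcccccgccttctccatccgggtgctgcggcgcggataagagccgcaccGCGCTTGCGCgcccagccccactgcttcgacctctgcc
Ndufs4, minus strand, chr13:114388045-114388344: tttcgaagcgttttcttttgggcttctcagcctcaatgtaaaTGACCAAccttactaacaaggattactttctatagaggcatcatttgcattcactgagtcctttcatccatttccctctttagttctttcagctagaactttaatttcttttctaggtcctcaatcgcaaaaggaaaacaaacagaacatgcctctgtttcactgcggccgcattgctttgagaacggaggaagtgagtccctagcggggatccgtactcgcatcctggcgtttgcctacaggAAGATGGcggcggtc
The windows of Cox7a2l and Cycs held none of these motifs, and Ndufb9 had no window.

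None of the 81 genes passed the test between GSK4112 and control cells. The test was limma on log2(FPKM + 1) over all 12181 genes, calling genes at a p under 0.05 after Benjamini-Hochberg adjustment, and log2 changes below are on that scale, GSK4112 minus control. Among all genes 126 were called (1.03%), 50 higher and 76 lower in GSK4112 libraries. With the replicate number as a block 839 genes were called (6.89%), and again none of the 81. At an unadjusted p under 0.05 there were 6 of the 81 (Ndufa6, Ndufb9, Cox7a2l, Ndufs4, Ndufs5 and Atp5g3), against 17.0% of all genes tested. In 7 of the 81 (8.64%) the ranges of the 2 groups did not overlap, against 23.6% of all genes. Of these, 3 were higher in GSK4112 libraries (Cox7a2l, Ndufb9 and Sdhb; 15.7% of all genes) and 4 lower (Ndufs4, Ndufs5, Ndufa7 and Atp5g3; 7.9% of all genes). For such a gene an exact permutation test of the 6 values gives p = 0.1, the smallest that 3 against 3 allows.

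The estimates were close to 0 and fairly tight. The log2 change had a median of -0.0019 over the 81 genes, beside 0.0543 over all genes tested. Its size had a median of 0.0704 over the 81 genes, beside 0.151 over all genes. The 95% interval lay wholly within 0.5 on either side of 0 for 68 of the 81 genes (84.0%), beside 53.7% of all genes, and the median standard errors were 0.105 and 0.128. Part of the tightness goes with level, but the size of the changes hardly does. In the 2024 genes at or above the lower quartile of the levels of the 81, the median log2 change was 0.0244 and its median size 0.144. There 62.3% of intervals lay within 0.5, and the median standard error was 0.110. Of these 2024 genes 21.2% had an unadjusted p under 0.05 by limma, and 26.8% had ranges that did not overlap. The shares among the 81 were 7.41% and 8.64%. The 13 genes whose interval passed 0.5 were Ndufa6, Ndufb10, Ndufs4, Ndufs5, Ndufv3, Uqcrb, Cycs, Cox4i2, Cox6a1, Cox6b2, Cox7a1, Cox7a2l and Atp5g3. The estimates were above 0 for 40 genes and below 0 for 41, beside 7415 above and 4766 below among all 12181 genes. That split depended on scaling and on single libraries: 23 of 81 were above 0 with median-of-ratios scaling, 44 with TPM scaling, 57 without control replicate 1 and 25 without control replicate 3.

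The median log2 changes of complexes I to V differed from each other by less than the SD between the libraries of a group. The median log2 change was 0.03 for complex I, 0.03 for complex II, -0.01 for complex III, -0.00365 for complex IV and -0.02 for complex V. The SD of the library medians within groups was 0.0898 for complex I, 0.0677 for complex II, 0.107 for complex III, 0.12 for complex IV and 0.117 for complex V. These SDs include shifts that the complexes shared within a library. They therefore cannot tell if complexes changed relative to each other. With median-of-ratios scaling the medians of complexes I and II were below 0 as well (-0.03 for both), while that of all genes was 0.00. Leaving out 1 library also turned signs: without control replicate 1 the medians of complexes IV and V were 0.09 and 0.01, and without control replicate 3 that of complex I was -0.02. Complexes I and V had the highest and lowest medians. Their library medians are deviations from each gene's own mean. In GSK4112 replicates 1 to 3 these were 0.006, -0.054 and 0.1015 for complex I, and 0.000265, -0.096 and 0.044 for complex V. In control replicates 1 to 3 they were 0.075, -0.006 and -0.123 for complex I, and 0.180, 0.047 and -0.117 for complex V. Complex I was above complex V in every GSK4112 library and below it in every control library (not tested).

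**Figure D1:**
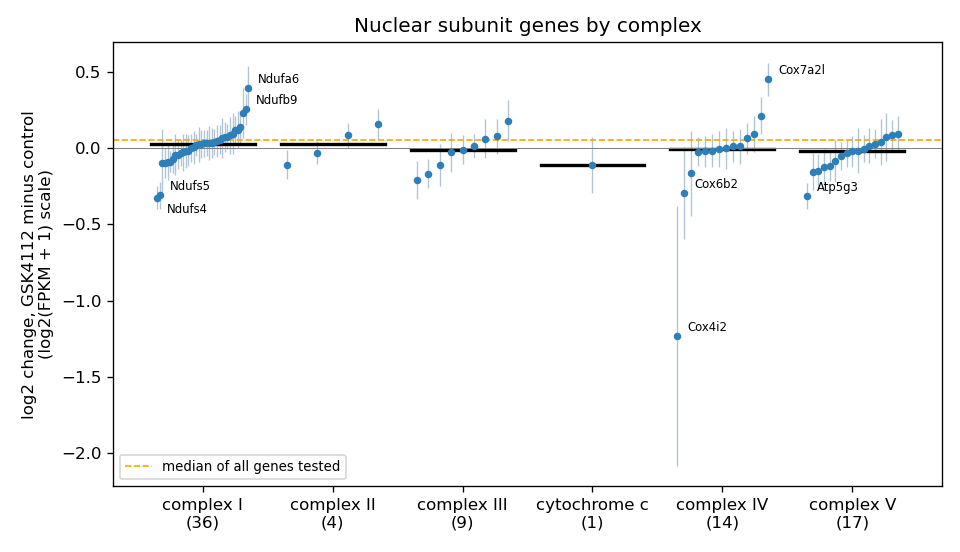
Log2 change (GSK4112 minus control, log2(FPKM + 1) scale) of each of the 81 genes, ordered within its complex, with its standard error; black bars are medians of the complex and the dashed line is the median of all 12181 genes. Most points lie within 0.2 of 0, and Cox4i2 (-1.23) has the widest error bar.

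Summed FPKM gives the amount of subunit mRNA per complex. Complex I subunits summed to 1616.5, 1581.8 and 1793.6 FPKM in GSK4112 replicates 1 to 3, against 1668.5, 1621 and 1453.9 FPKM in control replicates 1 to 3. Complex II subunits summed to 208.6, 198 and 216 FPKM in GSK4112 libraries, against 214.3, 216.2 and 198.1 FPKM in control libraries. Complex III subunits summed to 681, 605.5 and 705.8 FPKM in GSK4112 libraries, against 713.2, 681.8 and 614.9 FPKM in control libraries. In each of these the groups overlapped, and the lowest library of GSK4112 was replicate 2. Complex IV subunits summed to 1425, 1313 and 1536 FPKM in GSK4112 libraries, against 1455, 1312 and 1198 FPKM in control libraries. Complex V subunits summed to 1118, 1025.5 and 1162 FPKM in GSK4112 libraries, against 1241.5, 1176 and 1065 FPKM in control libraries. These ranges overlapped too. The log2 ratio of the group means was 0.074 for complex I, -0.014 for complex II and -0.013 for complex III. It was 0.109 for complex IV and -0.075 for complex V. Overlap of each sum does not tell if complexes shifted relative to each other within a library, which was not tested. All 81 genes together averaged 5085.5 ± 346 FPKM in GSK4112 libraries and 4968 ± 390 FPKM in control libraries (SD, n = 3 each), which was 1.70% of all FPKM.

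**Figure D2:**
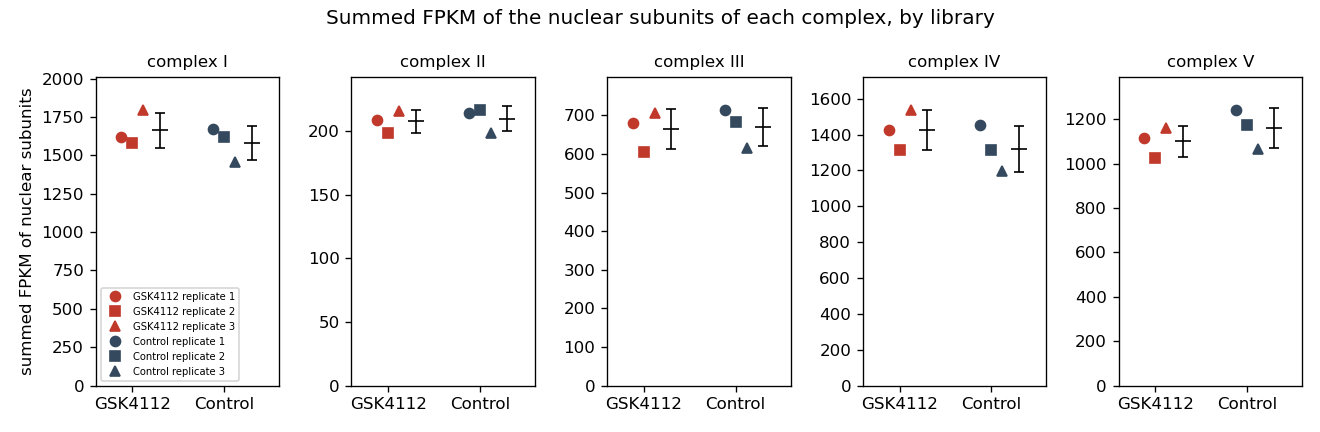
Summed FPKM of the nuclear subunits of complexes I to V in each library (symbols mark the replicate), with the mean and SD of each group beside the points (n = 3). The groups overlap in every panel; GSK4112 replicate 3 is the highest GSK4112 library and control replicate 3 the lowest control library in each.

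The 81 genes varied together from library to library within a group. GSK4112 replicate 3 had the highest GSK4112 value for 60 of the 81 genes, and GSK4112 replicate 2 had the lowest for 63. Control replicate 1 had the highest control value for 52 genes, and control replicate 3 the lowest for 57. The median deviation of the 81 genes from their own mean (log2 scale) was 0.02, -0.09 and 0.07 in GSK4112 replicates 1 to 3, and 0.09, 0.01 and -0.12 in control replicates 1 to 3. Over all genes these library medians stayed between -0.0475 and 0.0346. The pooled SD of the library medians within groups was 0.0966 for the 81 genes and 0.0145 for all genes. The value for all genes covers 12181 genes scaled to library size, so it is no baseline for a set of 81. Sets of like size or level were not compared. Same-numbered libraries were not alike in this: replicate 3 was the highest GSK4112 library and the lowest control library.

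Complex I has 7 nuclear core subunits, which carry the electron path from NADH to coenzyme Q. Ndufv1, Ndufv2 and Ndufs1 form the NADH-oxidising N module, and Ndufs3, Ndufs7 and Ndufs8 belong to the Q module that reduces coenzyme Q. Their log2 changes lay between 0.00340 for Ndufv2 and 0.14 for Ndufs7, and none was called. Ndufs7 averaged 29.5 ± 3.19 FPKM in GSK4112 libraries and 26.7 ± 1.93 FPKM in control libraries (SD, n = 3 each). All 7 estimates were above 0, but only 3 of 7 with median-of-ratios scaling.

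Among the 29 accessory subunits of complex I the widest differences in either direction were found. Ndufa6 (LYRM6), a small LYR-motif protein, had 177.9, 215.4 and 244.5 FPKM in GSK4112 replicates 1 to 3, against 148.9, 178.3 and 154.3 FPKM in control replicates 1 to 3. The lowest GSK4112 library lay just under the highest control library. Its log2 change was 0.40 ± 0.141 (SE; adjusted p = 0.2330, limma, higher in GSK4112 in each of the same-numbered pairs; 0.1094 with the block). Ndufa6 was also the most abundant complex I subunit, with a mean of 187 FPKM. Ndufb9 (LYRM3), another LYR-motif protein, had 124, 133.6 and 142.6 FPKM in GSK4112 libraries, against 111.9, 121.1 and 102.3 FPKM in control libraries. These ranges did not overlap, and the log2 change was 0.25 ± 0.1 (SE; adjusted p = 0.2721, limma).

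Ndufs4, an accessory subunit of the N module whose loss causes Leigh syndrome in people, had 23.1, 23.4 and 25.4 FPKM in GSK4112 libraries, against 30.2, 31.6 and 29.0 FPKM in control libraries. Every GSK4112 library was below every control library. The log2 change was -0.32 ± 0.0775 (SE; adjusted p = 0.1114, limma; 0.0820 with the block), with a 95% interval of -0.51 to -0.14. Ndufs5, a small subunit facing the intermembrane space, had 49.0, 46.1 and 52.9 FPKM in GSK4112 libraries, against 62.4, 64.4 and 57.3 FPKM in control libraries. These ranges did not overlap either, and the log2 change was -0.31 ± 0.0881 (SE; adjusted p = 0.1543, limma). With Ndufs6 and Ndufv3 they make the accessory S and V subunits, all 4 with estimates below 0 under each scaling tried, and a median of -0.20. The estimate of Ndufs6, -0.03, was 0.07 without both replicate 1 libraries and 0.05 with sample weights. Ndufv3 rested on a single library: it had 14.6, 14.0 and 16.0 FPKM in GSK4112 libraries, against 14.3, 23.5 and 12.0 FPKM in control libraries, and without control replicate 2 its log2 change was 0.17, not -0.10.

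The other accessory subunits stayed nearer to 0. Ndufa7 had 35.8, 35.9 and 38.5 FPKM in GSK4112 libraries, against 38.9, 39.2 and 39.2 FPKM in control libraries. The ranges were apart only by a small margin, with a log2 change of -0.09. Ndufb10 averaged 45.8 ± 4.67 FPKM in GSK4112 libraries and 39.4 ± 8.67 FPKM in control libraries (SD, n = 3 each), and its log2 change of 0.23 was 0.40 without control replicate 1. Of the Ndufa group 10 of 14 estimates were above 0 (median 0.04) and of the Ndufb group 5 of 9 (median 0.03); these counts were 5 of 14 and 3 of 9 with median-of-ratios scaling. Both Ndufc subunits lay within 0.04 of 0.

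**Figure D3:**
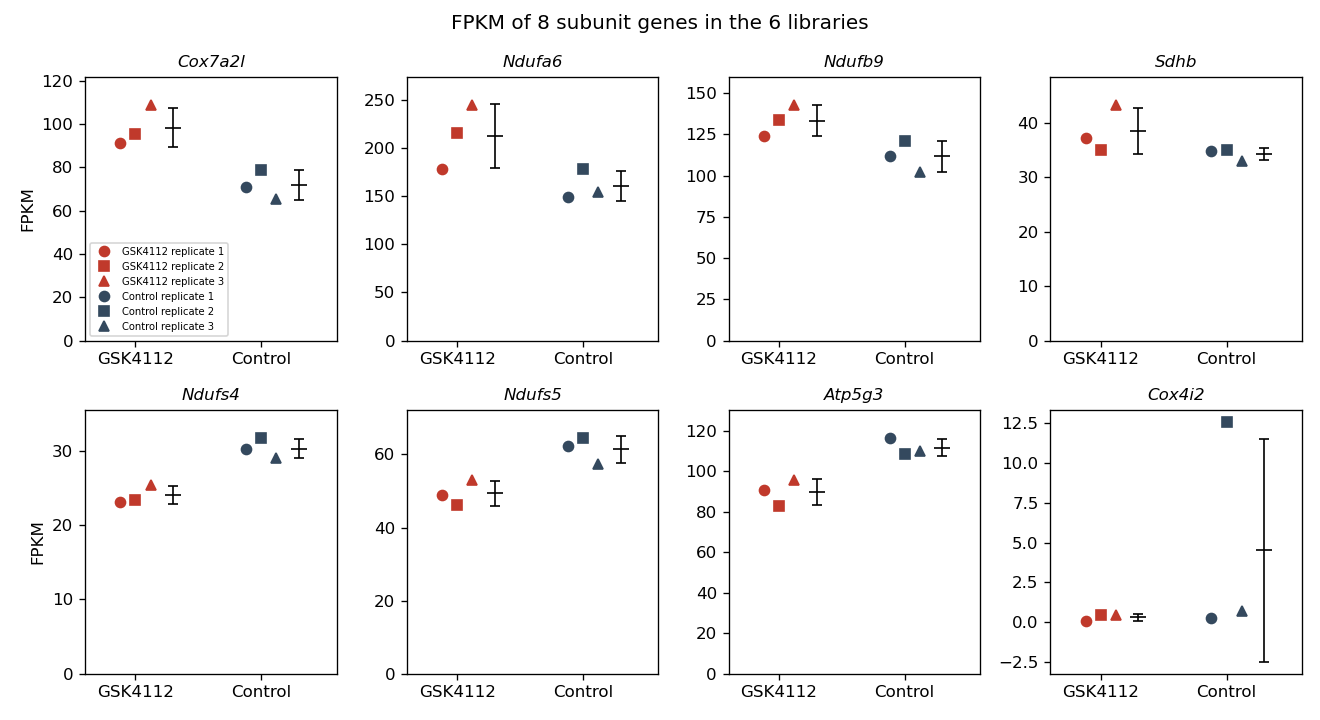
FPKM of 8 subunit genes in each library (symbols mark the replicate), with the mean and SD of each group beside the points (n = 3). Cox7a2l, Ndufb9 and Sdhb are higher in every GSK4112 library and Ndufs4, Ndufs5 and Atp5g3 lower; Ndufa6 and Cox4i2 overlap, and the Cox4i2 axis extends below 0 because the SD of the control libraries exceeds their mean.

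Some of these genes have near-identical copies whose fragments could have been taken from them in counting. By blastn, 39 of the 81 transcripts had a match of at least 95% identity over at least 50 bases elsewhere in the annotation, and 18 processed copies that matched over at least 100 bases averaged at least 1 FPKM. Exons of 27 of the genes overlapped those of another gene, for 15 of them a gene with a mean of at least 1 FPKM, and without a stated strand setting those reads cannot be told apart. Ndufs5 has the copy BC002163 (chr16:42955631-42955949, plus strand), which matches it over 319 bases at 99.4% identity. BC002163 had 33.6, 27.3 and 34.3 FPKM in GSK4112 replicates 1 to 3, against 31.6, 0.726 and 0.377 FPKM in control replicates 1 to 3. Thus 2 of the 3 control libraries held hardly any fragments of the copy, with 4 and 2 of them beside 956 and 820 of Ndufs5. Control replicate 1 held 183 fragments of the copy and still 975 of Ndufs5. Whether fragments of Ndufs5 were assigned to the copy was not tested.

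Added together, Ndufs5 and BC002163 had 52.8, 48.4 and 56.4 fragments in each 1000000 of the GSK4112 libraries, against 63.8, 55.6 and 49.4 in the control libraries. These sums overlapped between the groups. In limma-voom on the recovered fragments, an alternative added after the data were seen, the log2 change of Ndufs5 was -0.32 alone and -0.09 ± 0.122 with the copy added (SE; adjusted p = 0.730). Cox7a2l behaved otherwise. Its copy Gm6969 (chr12:24638669-24639010, minus strand; 201 bases identical) had 151.5, 153.8 and 174.9 FPKM in GSK4112 libraries, against 121.6, 123 and 109.8 FPKM in control libraries. With the copy added, the log2 change of Cox7a2l was 0.45 ± 0.106 (SE; adjusted p = 0.0999, limma-voom), beside 0.46 without it.

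Other copies took larger shares: Gm10221 held 128% as many fragments as its parent Atp5l, Gm10039 48.0% as many as Atp5g1, and Gm15920 41.9% as many as Ndufa12. What part this has in the parents' levels was not tested. Both Atp5l and Ndufab1 also sit just above the threshold, at means of 2.09 and 2.63 FPKM, with annotated exon lengths of 6443 and 6883 bases.

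**Figure D4:**
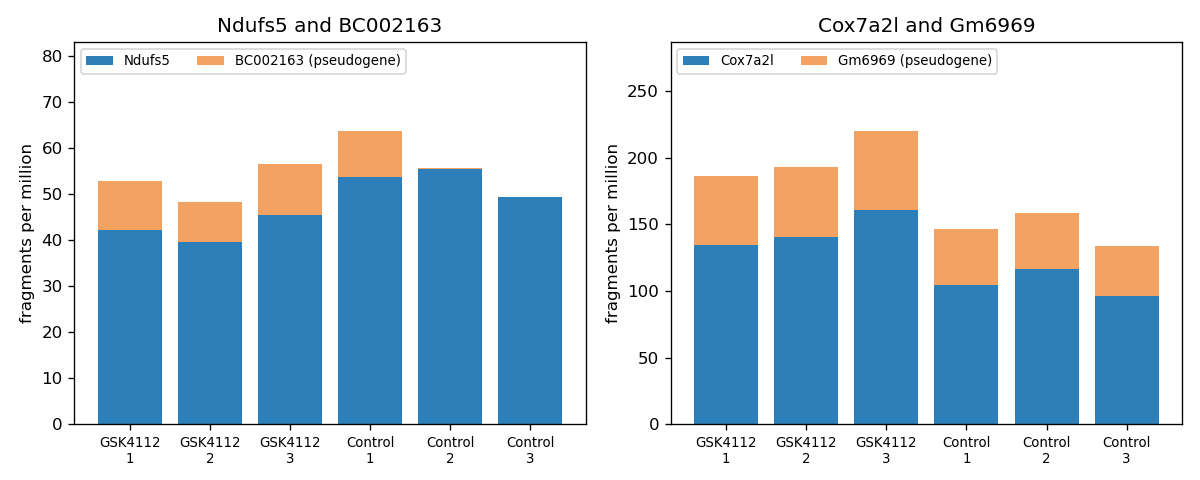
Fragments in each 1000000 (recovered from FPKM and exon length) of Ndufs5 with its copy BC002163, and of Cox7a2l with its copy Gm6969, stacked for each library. BC002163 is almost missing from control replicates 2 and 3, while Gm6969 is present in all 6 libraries.

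Complex II, the link between the tricarboxylic acid cycle and the chain, had 4 subunits. Sdhb, the iron-sulfur subunit, had 37.2, 35.1 and 43.2 FPKM in GSK4112 libraries, against 34.9, 35.0 and 33.0 FPKM in control libraries. The ranges were apart by a narrow margin, and the log2 change was 0.16 ± 0.0964 (SE; adjusted p = 0.4557, limma). Sdha, the flavoprotein that oxidises succinate, averaged 61.4 ± 2.92 FPKM in GSK4112 libraries and 62.8 ± 0.899 FPKM in control libraries (SD, n = 3 each). The membrane anchors had log2 changes of 0.08 (Sdhc) and -0.11 (Sdhd). The 95% intervals of all 4 lay within 0.5 of 0.

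Complex III had 9 subunits, none with separate ranges. The Rieske protein Uqcrfs1 and cytochrome c1 (Cyc1), which carry the electrons, had log2 changes of -0.03 and -0.00986. Cyc1 averaged 104.1 ± 7.55 FPKM in GSK4112 libraries and 104.8 ± 6.15 FPKM in control libraries (SD, n = 3 each). The widest estimates were Uqcr11 at 0.18 and Uqcrb at -0.21, both small subunits. Uqcrb had 29.4, 29.6 and 33.3 FPKM in GSK4112 libraries, against 41.8, 34.7 and 31.2 FPKM in control libraries. Its control value was highest in replicate 1, and without both replicate 1 libraries its log2 change was -0.07. The core proteins Uqcrc1 and Uqcrc2 had log2 changes of -0.17 and 0.01.

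Cycs had 27.0, 19.8 and 22.0 FPKM in GSK4112 libraries, against 32.0, 22.4 and 21.0 FPKM in control libraries. Replicate 1 was the highest library of both groups. Its log2 change was -0.11 ± 0.184 (SE; adjusted p = 0.7946, limma).

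In complex IV, Cox7a2l gave the highest estimate of all 81 genes. It had 91.1, 95.1 and 108.5 FPKM in GSK4112 replicates 1 to 3, against 70.7, 78.9 and 65.2 FPKM in control replicates 1 to 3, so that every GSK4112 library was above every control library. The log2 change was 0.45 ± 0.108 (SE; 95% interval 0.19 to 0.71; adjusted p = 0.1128, limma; 0.0723 with the block). With limma's sample weights, which gave 830 calls among all genes (6.81%), its adjusted p was 0.0413, and it was the single call among the 81. Its relatives differed from it: Cox7a2, the widely expressed form, had a log2 change of -0.02, and Cox7a1, the heart and muscle form, averaged 3.21 ± 0.959 FPKM in GSK4112 libraries and 3.81 ± 1.44 FPKM in control libraries (SD, n = 3 each).

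Cox6a1 was the most abundant of the 81 mRNAs, with a mean of 448 FPKM. It had 481.8, 441 and 517.8 FPKM in GSK4112 libraries, against 464, 401 and 380 FPKM in control libraries. GSK4112 replicate 2 lay below control replicate 1, and the log2 change was 0.21 ± 0.122 (SE; adjusted p = 0.4307, limma). Cox8a averaged 242.4 ± 19.4 FPKM in GSK4112 libraries and 227.6 ± 25.3 FPKM in control libraries (SD, n = 3 each). Cox4i1, Cox5a, Cox5b and Cox6b1 all had log2 changes within 0.02 of 0.

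Isoforms restricted to particular tissues were low. Cox4i2, the lung-enriched and oxygen-sensitive form of subunit 4, had 0.0751, 0.460 and 0.438 FPKM in GSK4112 libraries, against 0.280, 12.6 and 0.687 FPKM in control libraries. It passed the level filter through control replicate 2 alone, and its log2 change of -1.23 ± 0.85 (SE; adjusted p = 0.5051, limma) was -0.16 without that library. In the block fit without both replicate 1 libraries, which called 1139 of all genes (9.35%), Cox4i2 was the single call among the 81 (adjusted p = 0.0257). Without the block, leaving out both replicate 1 libraries called 856 of all genes (7.03%) and none of the 81. Ndufa4l2, which is not among the 81 genes, was listed at 0 in all GSK4112 libraries and at 0, 6.24 and 0.549 FPKM in control libraries. Thus it was highest in the same control library as Cox4i2.

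Cox6b2, the testis form, averaged 1.24 ± 0.427 FPKM in GSK4112 libraries and 1.86 ± 1.16 FPKM in control libraries (SD, n = 3 each), and at a mean of 1.55 FPKM it was the lowest of the 81. The 5 genes under the threshold were Ndufb2 (0.648 FPKM on average), Cox6a2 (0.531), Cox7b2 (0.104), Cox8c (0.0419) and Cox8b (0.0268). Cox6a2, the heart and muscle form of subunit 6a, had 0.957, 0.622 and 0.846 FPKM in GSK4112 libraries, against 0.324, 0.0852 and 0.354 FPKM in control libraries. It rests on a mean of 6.17 fragments per library and was not tested. Ndufb2 has an annotated exon length of 5628 bases, and its low FPKM stood for a mean of 62.5 fragments.

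In complex V, 6 of 17 estimates were above 0 and 11 below. This split turned with single settings: 3 of 17 were above 0 with median-of-ratios scaling, 11 without control replicate 1, 9 without GSK4112 replicate 2, 10 with sample weights and 9 without both replicate 1 libraries. The catalytic F1 subunits Atp5a1 and Atp5b were among the most abundant mRNAs. Atp5b averaged 235.7 ± 13.5 FPKM in GSK4112 libraries and 255.9 ± 20.9 FPKM in control libraries (SD, n = 3 each), and Atp5a1 averaged 214.6 ± 11.5 FPKM in GSK4112 libraries and 222.7 ± 11.1 FPKM in control libraries (SD, n = 3 each). Neither passed the test (adjusted p = 0.5991 and 0.8023, limma). The peripheral stalk subunits, of which Atp5o was widest at -0.15, were all below 0, 3 of them within 0.04 of 0. Atp5s, also called factor B, had a log2 change of 0.09.

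The c ring of complex V turns with the proton flow, and its single protein comes from 3 genes, Atp5g1, Atp5g2 and Atp5g3, that differ in their targeting peptides. Atp5g3 had 90.6, 82.8 and 95.9 FPKM in GSK4112 libraries, against 116.4, 108.5 and 110.2 FPKM in control libraries. Every GSK4112 library was below every control library, and the log2 change was -0.31 ± 0.0872 (SE; adjusted p = 0.1483, limma; 0.1004 with the block). Atp5g1 had a log2 change of -0.13 and Atp5g2 one of 0.09. The 3 genes summed to 167, 152 and 181 FPKM in GSK4112 libraries, against 193, 185 and 179 FPKM in control libraries, and these sums overlapped.

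Genes that work beside the nuclear subunits were counted from lists. Of 12 mtDNA-encoded subunits tested, 1 was called and lower (mt-Co2; 3 with the block). Their median log2 change was -0.36, and 11 of 12 estimates were below 0, all except that of mt-Co1 (0.085). Of 47 assembly factors tested none was called, against 1.03% of all genes, with 33 above 0 (24 with median-of-ratios scaling) and a median of 0.06. Among all 12181 genes 7415 were above 0, and the median was 0.0543. With the block, where 6.89% of all genes were called, 1 assembly factor was: Uqcc3, an assembly factor of complex III, had 27.2, 27.2 and 27.8 FPKM in GSK4112 libraries, against 21.1, 21.6 and 18.9 FPKM in control libraries. Its log2 change was 0.40 (adjusted p = 0.081 without the block and 0.048 with it, limma). Among 18 complex IV assembly factors, 15 estimates were above 0 (14 with median-of-ratios scaling).

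Of 12 coenzyme Q genes none was called without the block and Coq10a alone with it (log2 change 0.44, adjusted p = 0.085 and 0.040, limma). None of 14 tricarboxylic acid cycle genes was called, though Fh1 (fumarase), Suclg2 and Dlst were lower in every GSK4112 library than in any control library (7.9% of all genes were). Fh1 averaged 22.1 ± 0.431 FPKM in GSK4112 libraries and 26.0 ± 0.738 FPKM in control libraries (SD, n = 3 each). None of 8 transcription factors and coactivators of respiratory genes was called either. Nrf1 averaged 3.82 ± 0.410 FPKM in GSK4112 libraries and 3.83 ± 0.0908 FPKM in control libraries, and Gabpa averaged 18.0 ± 0.998 FPKM in GSK4112 libraries and 17.9 ± 0.870 FPKM in control libraries (SD, n = 3 each). The coactivators Ppargc1a and Ppargc1b were under the level filter, at means of 0.099 and 0.188 FPKM.

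Complexes I and III allow the mitochondrial and nuclear subunit mRNAs of a complex to be set against each other. The mtDNA-encoded sum over the nuclear sum of complex I was 5.41, 5.82 and 4.99 in GSK4112 replicates 1 to 3, against 6.05, 6.80 and 8.10 in control replicates 1 to 3. For complex III, where mt-Cytb is the only mtDNA-encoded subunit, it was 3.86, 4.16 and 3.46 in GSK4112 libraries, against 4.91, 4.72 and 6.01 in control libraries. Both ratios were lower in every GSK4112 library than in any control library. The nuclear sums of both complexes overlapped between the groups (above), while mt-Cytb had 2628, 2517 and 2442 FPKM in GSK4112 libraries, against 3503, 3221 and 3698 FPKM in control libraries. Such a separation with GSK4112 lower was found for 7.9% of all genes. The log2 change of mt-Cytb was -0.46 ± 0.149 (SE; adjusted p = 0.201, limma; 0.227 with the block), so it was not called.

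Not all mtDNA values can be read as levels. By blastn, mt-Cytb, mt-Nd1 and mt-Nd6 had no match of 95% identity elsewhere in the annotation, 49.1 to 63.6% of mt-Nd2, mt-Nd4 and mt-Nd5 did, and at least 99.0% of mt-Nd3, mt-Nd4l, mt-Co1, mt-Co2, mt-Co3 and mt-Atp6 did. The complex I ratio thus includes partly and wholly matched genes, while that of complex III includes none. Like mt-Cytb, the unmatched mt-Nd1 and mt-Nd6 were not called (adjusted p = 0.280 and 0.223, limma), nor were they with the block. The genes called, mt-Co2 and with the block also mt-Nd4l and mt-Atp6, are all among those matched over at least 99.0%. For complex IV, where all the mtDNA-encoded genes are matched, the ratio was 7.74, 9.77 and 7.81 in GSK4112 libraries, against 7.08, 8.93 and 9.95 in control libraries, and the groups overlapped. Nearly all of that mtDNA-encoded sum was mt-Co1, which averaged 11548 FPKM, the highest of the mtDNA-encoded subunits although wholly matched. For complex V it was 0.0132, 0.0151 and 0.0107 in GSK4112 libraries, against 0.0152, 0.0171 and 0.0187 in control libraries. These ranges did not overlap, by a very narrow margin, with GSK4112 libraries lower. The sum of all mtDNA-encoded subunits over that of the 81 genes was 4.42, 5.18 and 4.31 in GSK4112 libraries, against 4.49, 5.17 and 6.02 in control libraries, and these overlapped.

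**Figure D5:**
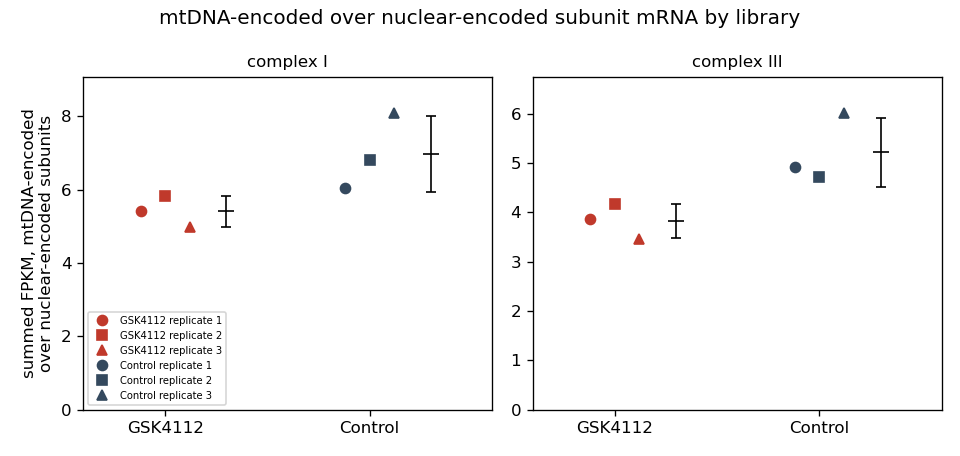
Summed FPKM of mtDNA-encoded subunits over summed FPKM of nuclear subunits for complexes I and III in each library (symbols mark the replicate), with the mean and SD of each group beside the points (n = 3). Every GSK4112 library lies below every control library in both panels, and control replicate 3 is the highest.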

How the data were processed

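RNA libraries of cultured mouse granulosa cells were sequenced, 3 with GSK4112 and 3 controls, and groups and replicate numbers were read from the sample titles. The design text speaks of treatment in vivo, whereas the protocol describes cultured cells. No dose is printed, since the labels' unit for it is no concentration. The authors deposited FPKM values per Ensembl gene for the 6 libraries, per the file headers. Per the submitters' processing notes, the build was GRCm38; for the aligner, counting program and strand setting, nothing was given in the sources used here. GENCODE M21 gave symbols and coordinates for 27098 IDs, and 53 had none.

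Library totals were recovered from the steps of low FPKM values times exon length: 92.8 to 93.1% of values under 500 fragments were whole within 0.01, and 1 fragment over 1 kb was worth 0.0551 to 0.0604 FPKM. Genes with a mean of at least 1 FPKM were put on the log2(FPKM + 1) scale and tested in limma 3.58.1 (R 4.3.3), using a variance trend, no block and 2-sided p, adjusted by Benjamini-Hochberg over all 12181 genes and called under 0.05. This scale understates changes of low genes. The procedure was tested on simulated data. Copies were sought with BLAST+ 2.17.0 and exon overlaps with bedtools 2.31.1.

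As a check of pairing, each library's deviations from its group mean were correlated between same-numbered libraries, which gave 0.665, 0.326 and 0.213 (limit 0.1). No label states a pairing, and GSK4112 replicate 2 had its highest correlation with control replicate 3 (0.530).

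The members and lists were chosen with earlier results of these data known. Genes named were those called, the 3 highest and 3 lowest changes and the 2 most abundant of each complex, the core subunits, isoform sets and genes beside the level threshold; 1 gene taken by this rule is not reported here. Ndufa7 and genes outside the 81 were named after their values were seen, apart from the mtDNA subunits and regulators. As alternatives, the pseudocount was 0.1 or 0.5, the filter was dropped or set to 5 FPKM, values were scaled by TPM, median-of-ratios or quantiles, and limma was run robust, without trend and with sample weights, beside limma-voom on recovered fragments, the replicate block, and libraries left out.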

Additional observations from a re-analysis of the deposited data

How the results depend on the processing

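The count of all genes called, 126, moved to 26 without a level filter, 830 with sample weights, 839 with the replicate block, 856 without both replicate 1 libraries and 1139 with the block and without both replicate 1 libraries. With 1 library left out it ranged from 0 to 153: it was 0 without GSK4112 replicate 2 (1224 at an unadjusted p under 0.05), 0 without GSK4112 replicate 3 (1318), 8 without control replicate 2 and 0 without control replicate 3 (1843), all by limma. Of the 81 subunit genes none was called by limma (6 at an unadjusted p under 0.05) or by limma-voom, and 1 was called with sample weights (Cox7a2l) and 1 with the block without both replicate 1 libraries (Cox4i2). The replicate block alone called 0 of them; among the companion lists it added calls for Uqcc3, Coq10a and mtDNA-encoded subunits (3 called, against 1 without it). The medians of the complexes moved by less than the SD between libraries under every alternative run, and so did their sums under the alternatives run for them (the scalings and libraries left out). That limit is wide, so staying within it says little. The block, robust and no-trend fits leave the log2 changes as they are, and leaving out 1 library can hardly move a group mean by that SD. Signs did turn: the complex IV median was -0.0037 with all libraries and 0.0896 without control replicate 1. The genes above 0 were then 6 and 12 of 14. Among the genes named by rule, the only ones checked under each alternative, values moved by more than their error for Cox4i2, Cox7a1, Cox6b2, Uqcrb, Ndufb10 and Ndufv3 when libraries were left out, for Cox4i2 also with limma-voom, and for Ndufs5 when its copy was added; the cause was not tested. Depth limits Cox6a2, with a mean of 6.17 fragments per library.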
